A study of Mus musculus with 6 samples.

Results

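The fatty acid oxidation genes described here are 9 mouse genes, Cpt1a, Cpt2, Slc25a20, Acadvl, Acadl, Acadm, Hadha, Hadhb and Ppara. They were picked by symbol, as known genes of the pathway, and all 9 were found among the 32719 genes of the count files and passed the filter on low counts. RNA came from the vagal jugular-nodose ganglia, home to the sensory neurons of the vagus nerve, of wild-type male C57BL/6J mice. The titles name 3 control and 3 treated libraries. Per the protocol, subcutaneous osmotic pumps delivered either PBS or S961, a peptide that blocks the insulin receptor, in PBS at 10 nmol per week for 2 weeks. Because S961 stands in the treatment label of controls too, the control group rests on the titles. Spinal cord is given as the tissue, whereas cell type and cell line name the ganglia. The labels give neither ages nor whether replicates are separate or pooled animals, so p-values measure the spread between these libraries, which may be technical.

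Long-chain fatty acids enter mitochondria as carnitine esters. Carnitine palmitoyltransferase 1 (Cpt1a or Cpt1b) loads them onto carnitine. The inner-membrane carrier Slc25a20 takes them across, and Cpt2 returns them to coenzyme A. In the matrix the acyl-CoA dehydrogenases for very long, long and medium chains (Acadvl, Acadl and Acadm) make the first oxidation, and the trifunctional protein built from Hadha and Hadhb completes the cycle on long chains. Ppara is a nuclear receptor that induces many of these genes, best known from the fasted liver. Insulin restrains the pathway through malonyl-CoA, which inhibits the entry step. In nervous tissue the pathway is held to be more active in glia than in neurons.

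The libraries held 12898607 to 33522486 gene counts, and the 9 genes together took 0.0675% to 0.0789% of them. Treated replicate 3 was the smallest library and stood apart: its correlations with the others across genes were 0.920 to 0.944, against up to 0.989 among the others, and genes are not independent replicates. It held the highest level of 34.3% of all tested genes and the lowest level of 34.3%. All 8 vagal sensory neuron markers, among them Prph and Scn10a, were counted in every library, with a summed level of 3599 to 3914 CPM (counts scaled to a common library size) in controls, 3897 and 3520 CPM in treated replicates 1 and 2 and 3040 CPM in treated replicate 3. Prdm12 alone of these markers was highest in treated replicate 3, at 116 CPM, and the rest except Scn10a were lowest there. The summed level of 12 fat cell markers was 12.2 to 41.3 CPM in controls. It was 8.92 and 61.6 CPM in treated replicates 1 and 2 and 535 CPM in treated replicate 3. Lep, Cox8b and Elovl3 of that list were at 0 counts in at least 1 library. The summed level of 8 Schwann cell markers was 1283 to 2064 CPM in controls and 1618, 2410 and 2486 CPM in treated libraries. That of 8 satellite glia markers was 2469 to 3421 CPM in controls and 2876, 3404 and 3704 CPM in treated libraries. The groups overlapped in both sums. All 8 Schwann cell markers had a positive log2 fold change of treated against control (median 0.55). So had 6 of 8 satellite glia markers (median 0.27) and 52.8% of all tested genes. In bulk RNA, more cells of a type and more RNA per cell cannot be told apart.

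None of the 9 genes differed between treated and control ganglia beyond the spread between libraries. With edgeR's quasi-likelihood test 0 of 9 passed at an adjusted p of 0.05, where 0% of the 16019 tested genes passed. None had an unadjusted p under 0.05, against 6.67% of all tested genes (4% higher and 2.67% lower), and DESeq2 and limma-voom with sample weights likewise gave 0 of 9 at either threshold. Over all genes DESeq2 called 0.567% at the adjusted and 7.98% at the unadjusted threshold, and limma-voom 0.0562% and 11.2%. The groups overlapped for all 9, whereas they did not overlap for 14.7% of all tested genes (7.04% higher and 7.65% lower in treated libraries). The log2 fold changes (treated against control) were positive for 6 genes and negative for 3, from -0.13 for Cpt1a to 0.64 for Ppara, with a median of 0.16 beside 0.016 over all genes. Without treated replicate 3 the median was -0.053 and 3 of the 9 were positive.

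**Figure D1:**
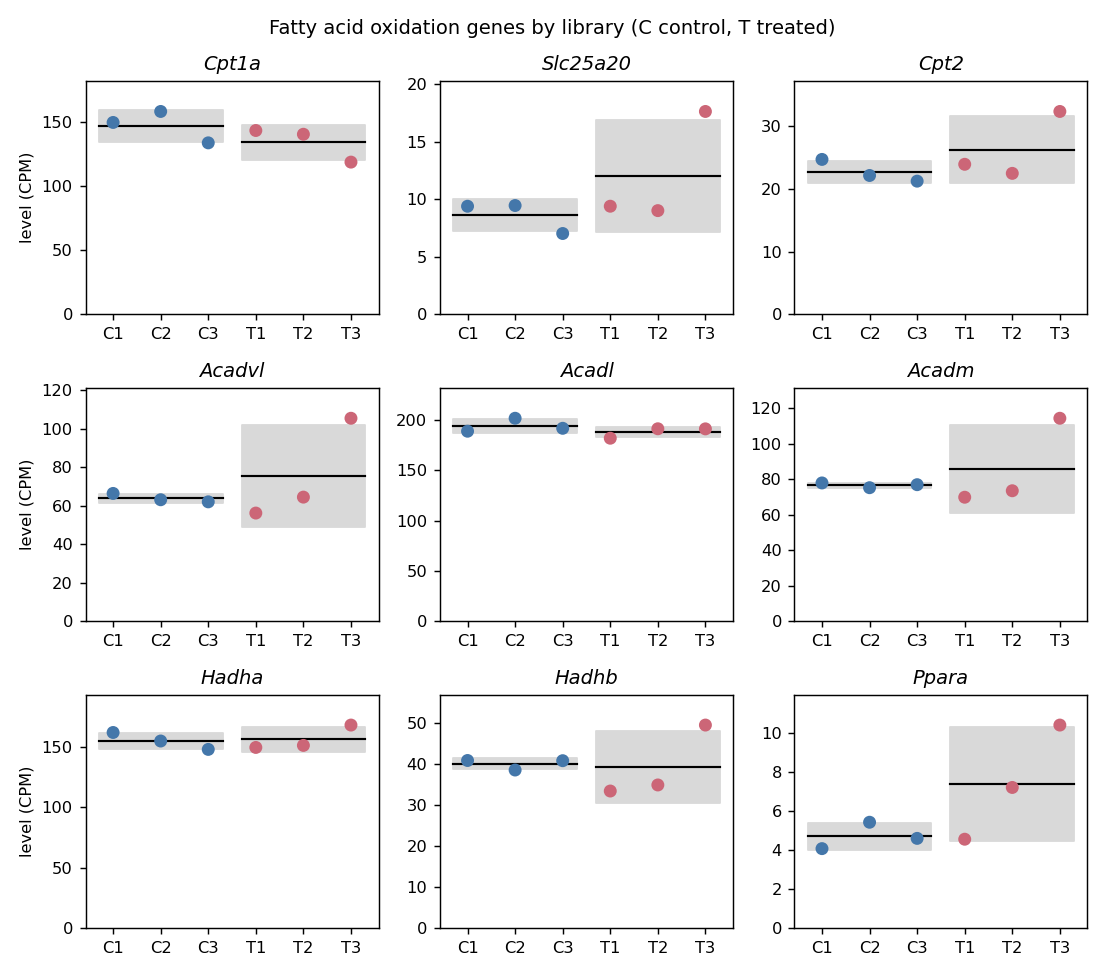
Level in CPM of each of the 9 genes (vertical axis, from 0) in the 3 control (C) and 3 treated (T) libraries; points are libraries, lines are group means and grey bands are ± 1 SD. Treated replicate 3 is the highest library for 7 genes, while Acadl stays between 182 and 202 CPM and Cpt1a is lowest in that library at 119 CPM.

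Hadha and Hadhb lie head to head on chromosome 5. The bases between their gene bodies are shown first because the genes of both subunits of 1 enzyme complex face outward from them. The GENCODE bodies leave a gap of 85 bases that overlaps 0 annotated exons, at chr5:30155163-30155247 (GRCm38, plus strand, read in the direction of Hadhb). The RefSeq promoter windows of the pair, each from 250 bases before to 50 bases after the start, share 228 bases. Both RefSeq starts lie inside the GENCODE bodies. The 250 bases before them span chr5:30154981-30155230 for Hadha and chr5:30155003-30155252 for Hadhb. Capitals mark GC boxes, with the letters GGGCGG, which were searched on both strands and were found in 35.7% of the 32851 promoter windows of the genome.
Hadha-Hadhb gap: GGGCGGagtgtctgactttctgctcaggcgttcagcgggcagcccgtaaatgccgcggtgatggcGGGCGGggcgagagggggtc

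The 3 acyl-CoA dehydrogenases are shown next because their levels differed in how even they were across libraries. The 120 bases before the RefSeq start of each (GRCm38.p6, minus strand, 5′ to 3′) overlap 0 annotated exons and lie at chr1:66863310-66863429 for Acadl, chr3:153944644-153944763 for Acadm and chr11:70015429-70015548 for Acadvl. Capitals mark GC boxes on the opposite strand (CCGCCC) and the nuclear receptor core motif AGGTCA.
Acadl: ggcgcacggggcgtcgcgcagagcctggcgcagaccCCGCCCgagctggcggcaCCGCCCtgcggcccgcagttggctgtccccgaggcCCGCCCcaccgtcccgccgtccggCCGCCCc
Acadm: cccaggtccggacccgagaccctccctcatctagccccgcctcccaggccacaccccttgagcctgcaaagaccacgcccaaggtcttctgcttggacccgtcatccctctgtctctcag
Acadvl: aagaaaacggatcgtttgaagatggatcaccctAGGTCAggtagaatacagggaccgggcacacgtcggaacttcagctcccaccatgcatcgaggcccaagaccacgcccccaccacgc

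All 9 genes had a RefSeq promoter window, and GC boxes were found in 7 of the 9, the exceptions being Acadm and Acadvl. The Acadl window was 70.3% G and C with 34 CpG pairs, the Acadvl window 50.7% with 9, and the median over all windows was 52.7% with 7. The motif AGGTCA, the core of nuclear receptor elements, was found on either strand in the windows of Cpt1a, Acadm and Acadvl, and in 16.3% of all windows. An exact PPAR element, 2 direct repeats of that core with any 1 base between them, was searched on both strands. It was found in 0 of the 9 windows and in 0.0396% of all windows. A string so rare is likely to be absent from any 9 windows, so this does not show that the genes lack PPAR elements. Variant forms of the element and bases outside the windows were not searched. A match describes letters in these windows and nothing about binding. Whether these letters go with how even the levels were across libraries was not tested.

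For the entry step, Cpt1a (ENSMUSG00000024900, chromosome 19, 3322334 to 3385733, GRCm38) had 150, 158 and 134 CPM in the controls and 143, 141 and 119 CPM in the treated libraries. All 3 treated libraries lay below control replicates 1 and 2, and treated replicates 1 and 2 lay above control replicate 3, so the groups overlapped. The means were 147 ± 12.4 and 134 ± 13.5 CPM (SD, n = 3), a log2 fold change of -0.13 ± 0.11 (SE) with a 95% interval of -0.39 to 0.12 and an edgeR adjusted p of 0.786. Cpt1a was the 1 gene of the 9 whose lowest library was treated replicate 3, and leaving it out gave a log2 fold change of -0.053.

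Slc25a20 (ENSMUSG00000032602, chromosome 9, 108662088 to 108684641), the carnitine-acylcarnitine carrier, had 9.39, 9.45 and 7.02 CPM in the controls and 9.39, 9.01 and 17.6 CPM in the treated libraries. Treated replicates 1 and 2 lay within the control range and treated replicate 3 above it. Its log2 fold change of 0.46 ± 0.29 (95% interval -0.21 to 1.13, edgeR adjusted p = 0.746) was 0.090 without treated replicate 3. Cpt2 (ENSMUSG00000028607, chromosome 4, 107903981 to 107923610), which reforms acyl-CoA on the matrix side, showed the same arrangement. It had 24.7, 22.2 and 21.3 CPM in the controls and 24.0, 22.5 and 32.4 CPM in the treated libraries. Its log2 fold change was 0.21 ± 0.16 (95% interval -0.16 to 0.58, edgeR adjusted p = 0.778) and 0.033 without treated replicate 3.

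Among the dehydrogenases, Acadl (ENSMUSG00000026003, chromosome 1, 66830839 to 66863277), the long-chain enzyme, was the most even of the 9 genes across all libraries. It had 189, 202 and 192 CPM in the controls and 182, 191 and 191 CPM in the treated libraries, so treated replicate 3 did not stand apart. Its log2 fold change was -0.045 ± 0.082, with the narrowest 95% interval of the 9 genes, -0.23 to 0.15 (edgeR adjusted p = 0.909).

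Acadm (ENSMUSG00000062908, chromosome 3, 153922357 to 153944632), the medium-chain enzyme, had 77.9, 75.2 and 76.9 CPM in the controls and 69.8, 73.5 and 114 CPM in the treated libraries. Treated replicates 1 and 2 were below all 3 controls and treated replicate 3 above them. The coefficient of variation was 1.77% in controls and 28.8% in treated libraries, and the log2 fold change was 0.16 ± 0.18 (95% interval -0.27 to 0.59, edgeR adjusted p = 0.841). Without treated replicate 3 it changed sign, to -0.097 ± 0.077.

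Acadvl (ENSMUSG00000018574, chromosome 11, 70010183 to 70015411), the very-long-chain enzyme, had 66.4, 63.1 and 62.0 CPM in the controls and 56.2, 64.5 and 106 CPM in the treated libraries. Treated replicate 1 was the lowest of the 6 libraries and treated replicate 3 the highest. Its log2 fold change of 0.24 ± 0.22 (95% interval -0.29 to 0.77, edgeR adjusted p = 0.810) also changed sign without treated replicate 3, to -0.081 ± 0.090. Exons of Dvl2 on the opposite strand share 42.9% of the merged exon bases of Acadvl, and the strand setting of the counting is not given in the sources used here, so reads of the pair may not be separable. Dvl2 stood at 8.30 to 11.8 CPM in controls and at 8.71, 13.2 and 8.10 CPM in the treated libraries, and was lowest in treated replicate 3.

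For the trifunctional protein, Hadha (ENSMUSG00000025745, chromosome 5, 30118304 to 30155162), the subunit with hydratase and dehydrogenase activity, had 162, 155 and 148 CPM in the controls and 150, 151 and 168 CPM in the treated libraries. The groups overlapped, and the log2 fold change was 0.013 ± 0.090 with a 95% interval of -0.20 to 0.22 (edgeR adjusted p = 0.980). Leaving out treated replicate 3 gave -0.042, and leaving out control replicate 3 gave -0.022. Hadhb (ENSMUSG00000059447, chromosome 5, 30155248 to 30184593), the thiolase subunit, had 40.8, 38.5 and 40.8 CPM in the controls and 33.4, 34.9 and 49.5 CPM in the treated libraries. Treated replicates 1 and 2 lay below all controls and treated replicate 3 above them, around a log2 fold change of -0.033 ± 0.16 (95% interval -0.40 to 0.33, edgeR adjusted p = 0.970). Without treated replicate 3 Hadhb was at -0.23 ± 0.092 (edgeR adjusted p = 0.577), without treated replicate 1 at 0.058 and without treated replicate 2 at 0.031.

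The ratio of levels of the 2 subunits varied between libraries. The Hadha to Hadhb ratio of CPM, not corrected for length, was 3.97, 4.03 and 3.63 for control libraries, and for treated libraries it was 4.49, 4.34 and 3.40. Treated replicates 1 and 2 had the highest ratios and treated replicate 3 the lowest, and the groups overlapped (two-sided exact permutation p = 0.6, where the smallest possible with 3 against 3 is 0.1). The Acadl to Acadvl ratio was 2.84 to 3.19 in controls, 3.23 and 2.96 in treated replicates 1 and 2 and 1.81 in treated replicate 3. The Acadvl to Acadm ratio moved less, from 0.805 to 0.923 over all 6 libraries. The Cpt1a to Cpt2 ratio was 5.99 to 7.14 in the other 5 libraries and 3.67 in treated replicate 3.

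Ppara (ENSMUSG00000022383, chromosome 15, 85734983 to 85802819), the transcription factor, was the least abundant of the 9. Control libraries held 71, 141 and 68 Ppara counts and treated libraries 153, 207 and 131, at which counting alone gives an error of 6.95% to 12.1%. The levels were 4.07, 5.42 and 4.59 CPM in the controls and 4.55, 7.20 and 10.4 CPM in the treated libraries. Treated replicates 2 and 3 lay above all controls and treated replicate 1 among them. The means of 4.69 ± 0.682 and 7.38 ± 2.93 CPM (SD, n = 3) gave the largest log2 fold change of the 9, 0.64 ± 0.32, with a 95% interval of -0.10 to 1.38, an edgeR p of 0.0816 and an adjusted p of 0.742. It was 0.32 without treated replicate 3. Treated replicates 2 and 3 were also the libraries with the highest fat cell level. As a covariate that level was taken as the mean log2 level of the 12 markers and not their sum. With it Ppara was at 0.26 ± 0.28.

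**Figure D2:**
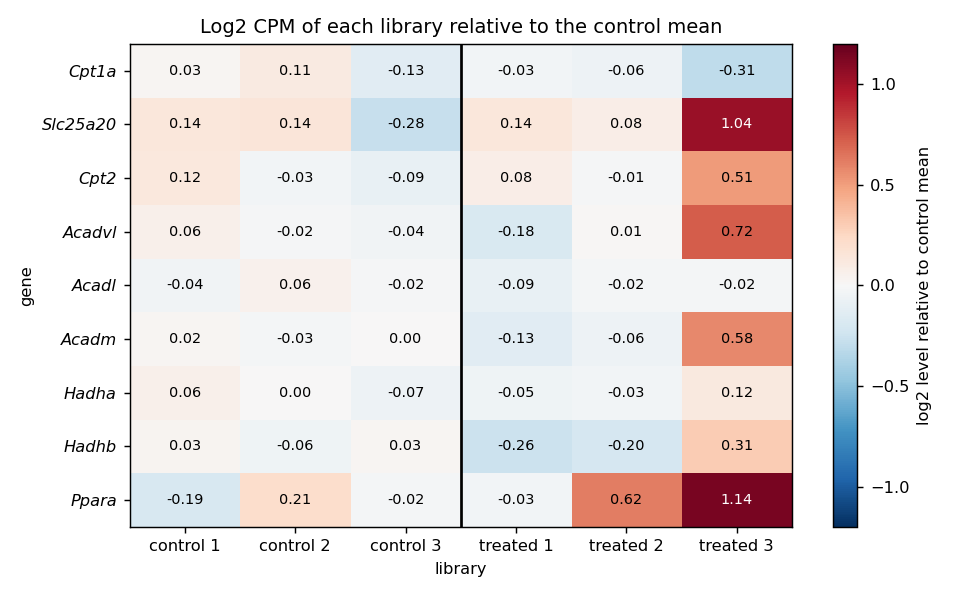
Log2 level of each of the 9 genes (rows) in each of the 6 libraries (columns) relative to the mean of the controls, with the value in each cell and the line separating controls from treated libraries. In treated replicate 3 the values run from -0.31 for Cpt1a to 1.14 for Ppara, and in treated replicate 1 from -0.26 for Hadhb to 0.14 for Slc25a20.

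Relative to the control mean, the median log2 level of the 9 genes was 0.029, 0.00064 and -0.041 for control libraries, and for treated libraries it was -0.050, -0.021 and 0.51. In treated replicate 1, 7 of the 9 genes lay below the control mean, in treated replicate 2, 6 did, and in treated replicate 3, 7 lay above it. The 2 exceptions in treated replicate 3 were Cpt1a at -0.31 and Acadl at -0.021. Treated replicate 3 was the highest library for 7 of the 9 genes, where it was the highest for 34.3% of all tested genes. In that library the summed level of 8 macrophage markers was 300 CPM against 34.0 to 81.7 CPM in the others. That of 8 fibroblast markers, led by Dcn, was 2159 CPM against 480 to 1149 CPM. That of 8 pan-neuronal genes was 5951 CPM against 7501 to 8175 CPM. Of these 8, Rbfox3 was highest in that library, at 131 CPM against at most 127 CPM, and the others were lowest there. With the fat cell level as a covariate the log2 fold changes of the 9 genes ran from -0.21 for Hadhb to 0.26 for Ppara with a median of -0.049, and 3 were positive. The fat cell, macrophage and fibroblast levels were all highest in treated replicate 3. The covariate therefore cannot be told apart from other traits of that library, and the part of each cell type was not tested.

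**Figure D3:**
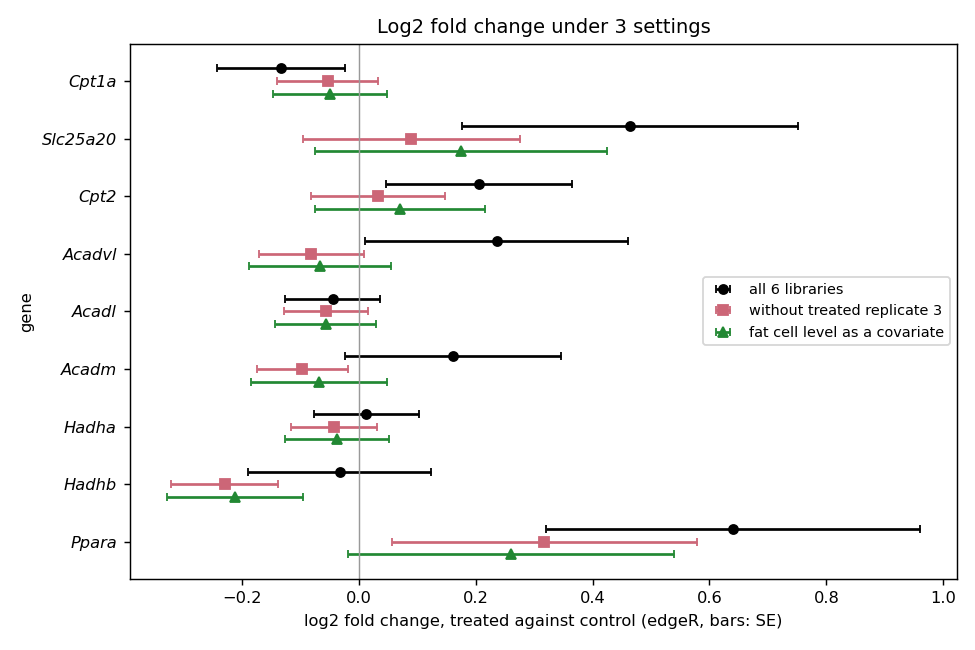
Log2 fold change of treated against control (horizontal axis, bars ± 1 SE) of each gene. Settings are all 6 libraries, all but treated replicate 3, and the mean log2 fat cell marker level as a covariate. Acadvl, Acadm and Hadha pass from above to below 0 in both alternatives, and Acadl stays at -0.045 to -0.057.

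Levels between genes were compared per kilobase of the principal transcript. In controls the order was Acadl at 101 ± 3.53 CPM per kb, Hadha at 38.6 ± 1.75, Acadm at 37.4 ± 0.661, Cpt1a at 34.1 ± 2.88, Acadvl at 29.5 ± 1.05, Hadhb at 19.5 ± 0.648, Cpt2 at 9.58 ± 0.759, Slc25a20 at 4.84 ± 0.777 and Ppara at 1.37 ± 0.200 CPM per kb (SD, n = 3). Acadl was 2.38 to 2.73 times Hadha in each of the 6 libraries. Hadha and Acadm did not differ beyond their spread, with a ratio of 0.750 to 1.09 and Hadha higher in 4 of 6 libraries. The ratio of Acadm to Cpt1a was 1.00 at its lowest, and Cpt1a was above Acadvl in 5 of 6 libraries, so the middle of the order was close. From Acadvl down each gene was above the next in all 6 libraries. With the exons of all transcripts merged, a length chosen after seeing the data, Acadvl followed Acadl at 23.8 CPM per kb and Hadha came after Acadm and Cpt1a at 17.8 CPM per kb, Cpt2 stood above Hadhb at 9.50 against 6.07 CPM per kb, and Acadl stayed first and Slc25a20 and Ppara last.

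**Figure D4:**
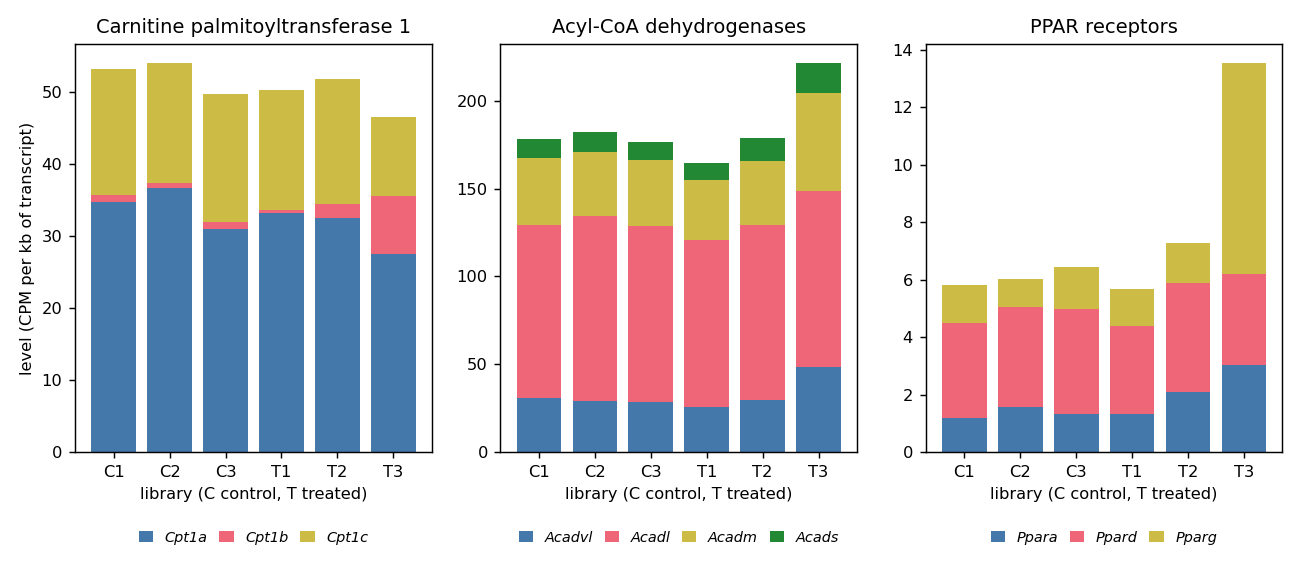
Stacked level in CPM per kb of transcript (vertical axes, from 0) in each library of the carnitine palmitoyltransferase 1 isoforms, the acyl-CoA dehydrogenases and the PPAR receptors. Cpt1b reaches 17.3% of its family and Pparg 54.1% of its family in treated replicate 3, and Acadl drops from at least 55.2% to 45.1% of the dehydrogenases there.

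In the carnitine palmitoyltransferase 1 family, Cpt1a is the liver-type isoform, Cpt1b the muscle and brown fat isoform and Cpt1c the brain isoform. Their shares and sum are RNA levels and do not measure capacity at the entry step. Per kilobase, Cpt1a held 62.4% to 67.9% of the family in controls and 66.0%, 62.8% and 59.2% in the treated libraries. Cpt1b, whose counts are uncertain because the read-through gene Gm44502 shares 2744 of its exon bases on the same strand, held 1.45% to 1.92% in controls and 0.857%, 3.69% and 17.3% in the treated libraries. In CPM it stood at 2.27 to 2.81 in controls and at 1.25, 5.53 and 23.3 in the treated libraries, a log2 fold change of 1.92 ± 0.99 (edgeR adjusted p = 0.742) that was 0.37 without treated replicate 3. Cpt1c stood at 46.2 to 49.6 CPM in controls and at 46.6, 48.6 and 30.5 CPM in the treated libraries. The sum of the isoforms was 49.7 to 54.0 CPM per kb in controls and 50.3, 51.8 and 46.5 CPM per kb in treated libraries. The lowest sum, in treated replicate 3, went with the highest Cpt1b and the lowest Cpt1a and Cpt1c of the 6 libraries.

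Among the dehydrogenases, with the short-chain enzyme Acads added, Acadl made up 55.2% to 57.8% of the family sum per kilobase in 5 libraries and 45.1% in treated replicate 3. Acadm held at most 21.3% in those 5 libraries and 25.2% in treated replicate 3. The family sum was 176 to 182 CPM per kb in controls and 165, 179 and 221 in the treated libraries.

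Of the receptors that share ligands with Ppara, Ppard stood at 12.4, 12.9 and 13.6 CPM in the controls and 11.4, 14.1 and 11.8 CPM in the treated libraries (log2 fold change -0.058 ± 0.14, and -0.022 without treated replicate 3). Pparg, the receptor of fat cells and macrophages, stood at 2.07 to 3.11 CPM in the 5 other libraries and at 15.6 CPM in treated replicate 3, and its log2 fold change of 1.39 ± 0.71 was 0.11 without treated replicate 3. Per kilobase Ppard was the most abundant of the 3 receptors in 5 libraries, with 51.7% to 57.4% of the sum, and in treated replicate 3 Pparg was, with 54.1%. Ppara held 20.4% to 28.9% in all 6.

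The rest of the pathway was taken from 7 lists with 86 genes, of which 82 were tested. None passed with edgeR, DESeq2 or limma-voom with sample weights at an adjusted p of 0.05. By edgeR 4 had an unadjusted p under 0.05, by DESeq2 12 and by limma-voom 7, beside 6.67%, 7.98% and 11.2% of all genes by the same tools. Those 4 were Lpin1, a coactivator and phosphatidate phosphatase, at 0.24 ± 0.080, the acyl-CoA thioesterase Acot1 at 0.89 ± 0.35, the peroxisomal transporter Abcd2 at -0.34 ± 0.12 and the coactivator Ppargc1b at -0.30 ± 0.12 (log2 fold changes ± SE). Lpin1 had 85.7 to 94.3 CPM in controls and 107 to 109 CPM in the treated libraries, with no overlap, and it was at 0.23 without treated replicate 3. Abcd2 had 26.6 to 30.5 CPM in controls and 20.6 to 24.7 CPM in the treated libraries, and Ppargc1b 35.7 to 40.8 and 27.2 to 35.1 CPM, again with no overlap.

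The matrix enzymes beyond the 9 genes had positive log2 fold changes in 13 of 14 cases with a median of 0.21, where 52.8% of all genes were positive. Treated replicate 3 was the highest library for 12 of these 14, and without it the median was 0.0052. Hadh, the short-chain hydroxyacyl-CoA dehydrogenase, had 26.3 to 29.1 CPM in controls and 23.9, 31.7 and 50.7 CPM in the treated libraries, and Acads 18.8 to 21.1 CPM and 18.1, 25.5 and 31.8 CPM. Their log2 fold changes of 0.36 ± 0.26 and 0.32 ± 0.20 became 0.018 and 0.12 once treated replicate 3 was left out. Decr1, the dienoyl-CoA reductase, was at 0.31 ± 0.17 and Acad11, which takes very long chains, at 0.23 ± 0.13. With that library left out they were at 0.10 and 0.12.

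Of the 12 carnitine and acyl-CoA activation genes 8 were positive (median 0.072), among them the basic amino acid carrier Slc25a29 at 0.46 ± 0.26, while the carnitine importer Slc22a5 was at -0.29 ± 0.17. Of the 14 peroxisomal genes 9 were positive (median 0.039), with Scp2 at 0.33 ± 0.17 (0.14 without treated replicate 3) and the carnitine octanoyltransferase Crot at -0.14 ± 0.080, whose groups did not overlap. Of 6 ketone body genes 4 were positive (median 0.11). Slc16a1, the monocarboxylate transporter, was at 0.30 ± 0.17 and Oxct1, which activates ketone bodies for oxidation, at -0.17 ± 0.13, or 0.12 and -0.042 with treated replicate 3 left out.

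Of the 18 regulators 13 were positive, with a median of 0.066. Ppargc1a, the coactivator of mitochondrial genes, was at 0.14 ± 0.14 and at 0.049 without treated replicate 3. Acacb, whose malonyl-CoA product inhibits carnitine palmitoyltransferase 1, had 13.6 to 19.0 CPM in controls and 15.5, 26.9 and 66.6 CPM in the treated libraries, at 1.08 ± 0.54, which was 0.31 without treated replicate 3. Known PPAR alpha targets had the highest median of the 7 lists, 0.88 over 12 tested of 16 genes with 11 positive, and it was 0.27 without treated replicate 3 and 0.19 over the 7 of them at or above 5 CPM in 3 libraries. Pdk4, the kinase that shuts pyruvate dehydrogenase, had 12.8 to 15.4 CPM in controls and 10.9 to 44.8 CPM in the treated libraries (0.88 ± 0.48, and 0.31 ± 0.37 without treated replicate 3). Ucp3, an uncoupling protein relative of muscle and brown fat, was at 1.86 ± 0.87 and the lipid droplet protein Plin5 at 2.17 ± 1.02, which became 0.34 and 0.68 once treated replicate 3 was left out. The 9 lipolysis and uptake genes, 7 of them positive, had a median of 0.49, or 0.023 with treated replicate 3 left out. In that list the hormone-sensitive lipase Lipe was at 1.37 ± 0.62, lipoprotein lipase Lpl at 2.90 ± 1.38 and Mgll, the monoacylglycerol lipase, at -0.18 ± 0.09. Lpl had 1.96 to 8.07 CPM in controls and 3.72, 17.0 and 110 CPM in the treated libraries. Without treated replicate 3 Lipe was at 0.54 and Lpl at 0.84. Among the treated libraries the summed fat cell, macrophage, fibroblast and neutrophil marker levels were all lowest in replicate 1 and highest in replicate 3. Skeletal muscle markers went the other way between groups. The summed level of 10 of them was 19.4, 101 and 166 CPM in controls and 27.9, 9.39 and 37.4 CPM in treated libraries. Of these 10, 9 had a negative log2 fold change (median -1.53), where 52.8% of all genes were positive. With the fat cell level as a covariate the medians were 0.13 for the PPAR alpha targets and 0.0017 for the lipolysis and uptake genes. The part of each cell type was not tested.

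**Figure D5:**
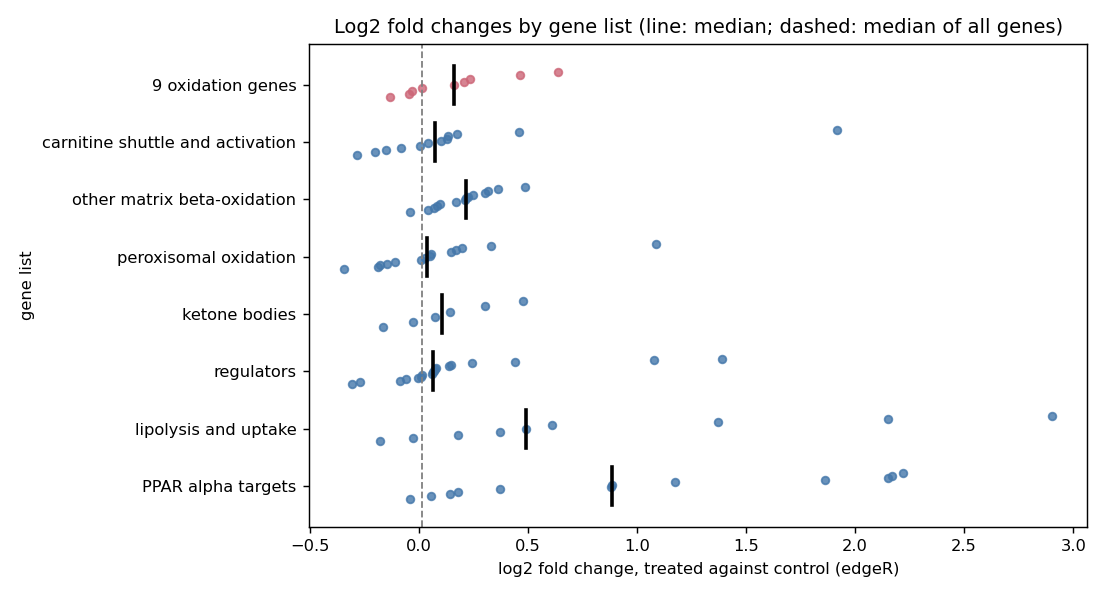
Log2 fold change of treated against control (horizontal axis) of the 9 oxidation genes and of the tested genes of 7 related lists; each point is a gene, black lines are list medians and the dashed line is the median of all 16019 tested genes at 0.016. Medians run from 0.039 for peroxisomal oxidation to 0.88 for PPAR alpha targets.

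Among the genes whose log2 level over the 6 libraries was most like the mean of the 9 genes, among 14696 candidates at or above 1 CPM, were Arap3, Tmem138, Uck1 and Tbc1d20, with Pearson's r of 0.994 to 0.998 and Spearman's rho of 0.771 to 0.943. The mean profile was 0.38 in treated replicate 3 and between -0.14 and -0.03 in the other 5 libraries. An r above 0.9 was reached by 664 candidates.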

How the data were processed

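Per the labels' protocols, each library took roughly 6 ng of RNA through a stranded low-input kit, with reads of 100 bp. The deposited values are raw counts of exonic reads per gene, 1 file per library. The submitters' processing notes list bcl2fastq 2.20, STAR 2.7.7a, DESeq2, edgeR and mm10; the sources used here do not name the counting program, annotation or strand setting. Coordinates and transcript lengths come from GENCODE M21 (GRCm38), which holds 32663 of the 32719 identifiers, and promoters from RefSeq.

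Counts were fitted with edgeR 4.0.16 in R 4.3.3: filterByExpr with a minimum count of 10, TMM scaling, a robust quasi-likelihood F test on group, and Benjamini-Hochberg adjustment over 16019 genes at 0.05. SE is the size of the log2 fold change divided by the square root of F. The fit was tested on simulated data.

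The 9 genes, the lists and the tests were chosen with earlier results of these data known. Of the lists, the 3 smallest p of each are named, and always Cpt1b, Cpt1c, Ppard, Pparg, Ppargc1a, Hadh, Acads, Acacb and Pdk4. Some genes that this rule names are not reported here. Dvl2 was added for its overlap with Acadvl. Alternatives were DESeq2 1.42.0, limma 3.58.1 voom with sample weights, DESeq2 size factors, library size scaling, no filter, a stricter filter (5 CPM in 3 libraries), a replicate block, the fat cell level as a covariate, and leaving out each library.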

Additional observations from a re-analysis of the deposited data

How the results depend on the processing

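In all 14 alternatives 0 of the 9 genes and 0 of the related genes passed, and adjusted p-values of the 9 genes ran from 0.426 to 0.998. Cpt1a, Cpt2, Acadl, Ppara and Slc25a20 kept their direction throughout. With limma-voom and sample weights the log2 fold change was -0.045 for Acadm, -0.013 for Acadvl, -0.042 for Hadha and 0.026 for Ppard, and the median of the 9 genes was -0.030. With the fat cell level as a covariate it was -0.068 for Acadm, -0.066 for Acadvl, -0.037 for Hadha and -0.14 for Cpt1b, and that median was -0.049. Hadha was at -0.0018 without a filter. The cause of these reversals was not tested. Leaving out each library in turn, the median ran from -0.053 to 0.25, Acadm from -0.097 to 0.28, Acadvl from -0.081 to 0.40, Hadha from -0.042 to 0.043, and Hadhb from -0.23 to 0.058. Over all genes edgeR called 0, against 26 without a filter, 89 by the DESeq2 Wald test, 9 by limma-voom with sample weights, 3 with the fat cell covariate, 1 with the replicate block and 0 to 9 with a library left out. With all exons merged the median level of the 9 genes in controls was 17.8 CPM per kb instead of 29.5. Deviations from the group mean correlated across genes at 0.014, 0.564 and 0.488 for the libraries numbered 1, 2 and 3. Within a group of 3 these deviations sum to 0, so the correlations are not independent. Control replicates 2 and 3 each correlated best with the treated library of the same number. Control replicate 1 correlated best with treated replicate 3, at 0.125. The labels do not state that the numbers pair samples, so the replicate block was kept as an alternative, and shared batches were not tested. With the replicate block the median of the 9 genes was 0.12 and 0 passed.

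The depth of 68 counts or more for each of the 9 genes in each library put counting error at or under 12.1%, which for Ppara is near the coefficient of variation of its controls, 14.5%.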
